A study of Drosophila melanogaster with 26 samples.

Results

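The 2 transcript rows of the array's value table paired with Eph, the receptor tyrosine kinase gene of the Drosophila ephrin pathway, were FBtr0089085, paired with CG1511-RD and called Eph-RD here, and FBtr0089082, paired with CG1511-RA and called Eph-RA. They are 2 of the 16623 rows with a FlyBase transcript identifier. They were chosen because their log2 signals changed differently between 1-3 h and 3-5 h. Every value at 3-5 h is therefore given as a description, with no test. RNA came from primordial germ cells (PGCs), the precursors of the germ line, sorted from embryos by their VASA-GFP fluorescence, and from GFP-negative somatic cells. The wild-type strain was w1118, VASA-GFP/CyO ; PrDr/TM3,Sb. Its PGCs were profiled in embryos aged 1-3 h, 3-5 h and 5-7 h, and its somatic cells at 1-3 h, with 4 biological replicates each. The smaug-mutant PGCs came from embryos produced by smaug hemizygous females (smg1/Df), so the mutant genotype named here is that of the mothers. The stocks used carried VASA-GFP with the smg1 allele, and the deficiency Df(3L)Scf-R6. These PGCs were profiled with 3, 3 and 4 replicates at those times. Smaug is an RNA-binding protein that represses and destabilizes maternal mRNAs. Each sample is a pool of sorted cells, so fewer cells of a type and less RNA per cell cannot be told apart.

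Eph receptors are single-pass membrane kinases that bind ephrins, which are themselves anchored in the membrane of a neighbouring cell, so that signalling needs cell contact. The receptor acts through Src-family and Abl kinases on the actin cytoskeleton. The pathway is best known for contact repulsion, tissue boundaries and, in the fly, the guidance of axons. In early embryos most mRNA is maternal and is cleared while zygotic transcription begins, which is the maternal-to-zygotic transition that the time course follows.

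The Eph gene (FBgn0025936) lies on chromosome 4, and RefSeq lists 6 transcripts for it, of which 2 were paired with rows of the table. The pairing of Eph-RA was found through 2 lists of transcripts and that of Eph-RD through 1. The probe sequences were not used here. A row's signal may therefore include other Eph transcripts that share its probes, and the level of one row is not compared with the level of the other. The change of one row between groups, and the change of the log2 ratio of Eph-RD over Eph-RA, are compared instead. This ratio is taken within the channel of 1 sample, so any scaling of a whole channel cancels from it.

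Both rows were well measured. Across arrays the mean log2 signal was 8.18 to 8.25 and the 20 control and transgene rows had medians of 4.06 to 4.83, while the lowest Eph value in any sample was 10.74 and both rows exceeded the array mean in all 26 samples. Of 9 germline markers 7 had rows, and all 10 of their rows were called lower in wild-type somatic cells than in PGCs at 1-3 h. In this comparison 3080 of all 16623 rows were called lower. Rows were named only through the study's lists, which include transcripts enriched in these same PGCs or somatic cells. The markers are therefore no independent check of identity, and this comparison does not cover the other PGC groups. The smaug row CG5263-RA was at a log2 signal of 10.58 to 11.73 in the 10 mutant PGC samples and 11.53 to 13.98 in the 12 wild-type PGC samples, and the row CG5263-RB at 7.44 to 11.40 and 11.09 to 13.77, so the ranges of both rows overlapped at their ends. Wild-type PGCs at 5-7 h were not alike: the 50 most soma-enriched rows stood at 2.32% and 1.84% of their somatic level in replicates 1 and 2, and at 68.2% and 60.4% in replicates 3 and 4. Of the somatic marker lists, 3 of 12 early somatic, 2 of 5 blood cell, 1 of 3 muscle and 0 of 6 neural and glial genes had rows, and the log2 of the summed blood cell signal was 7.45 and 7.95 in replicates 1 and 2, 12.88 and 12.59 in replicates 3 and 4, and 15.21 to 15.45 in somatic cells. The 50 most PGC-enriched rows stood at 30.4% and 45.9% of their 1-3 h PGC level in replicates 1 and 2 and at 5.18% and 7.36% in replicates 3 and 4, where somatic cells had 5.98% to 6.95%. What set replicates 3 and 4 apart, the sort or the label included, was not tested. In the other PGC groups the soma-enriched share was between 0.358% and 2.60%. The main results that include the 5-7 h wild-type samples are also given without replicates 3 and 4.

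In wild-type PGCs at 1-3 h, Eph-RD had log2 signals of 14.10, 13.78, 14.04 and 14.06 in replicates 1 to 4. Eph-RA had 12.31, 12.34, 12.86 and 12.81 in the same samples. Each row was thus reproducible within about 0.55 log2 units at the start of the time course. At 3-5 h Eph-RD had 13.51, 13.83, 13.98 and 13.84, and Eph-RA had 13.66, 13.96, 14.08 and 14.14. All 4 of these Eph-RA values lay above all 4 at 1-3 h, whereas the Eph-RD values of the 2 times overlapped. In linear intensity, the mean of Eph-RA went from 6220 ± 1270 to 16081 ± 2265 (SD, n = 4), and that of Eph-RD from 16375 ± 1598 to 14256 ± 1867.

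The wild-type difference between 3-5 h and 1-3 h was 1.38 on the log2 scale for Eph-RA, a ratio of 2.61, and -0.20 for Eph-RD. These contrasts chose the rows and carry no test. For scale, 17.2% of all rows were called in this comparison (an adjusted p under 0.05 in limma's moderated test and a fold above 2), and 94.2% of rows had a smaller or more negative change than Eph-RA. By 5-7 h Eph-RD had 12.42, 13.11, 13.22 and 12.71, and Eph-RA had 12.21, 12.99, 13.10 and 12.65. All values of both rows then lay below those at 3-5 h, with mean differences of -0.92 for Eph-RD and -1.22 for Eph-RA. In that comparison 2.95% of rows were called, and without replicates 3 and 4 at 5-7 h the differences were -1.02 and -1.36.

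**Figure D1:**
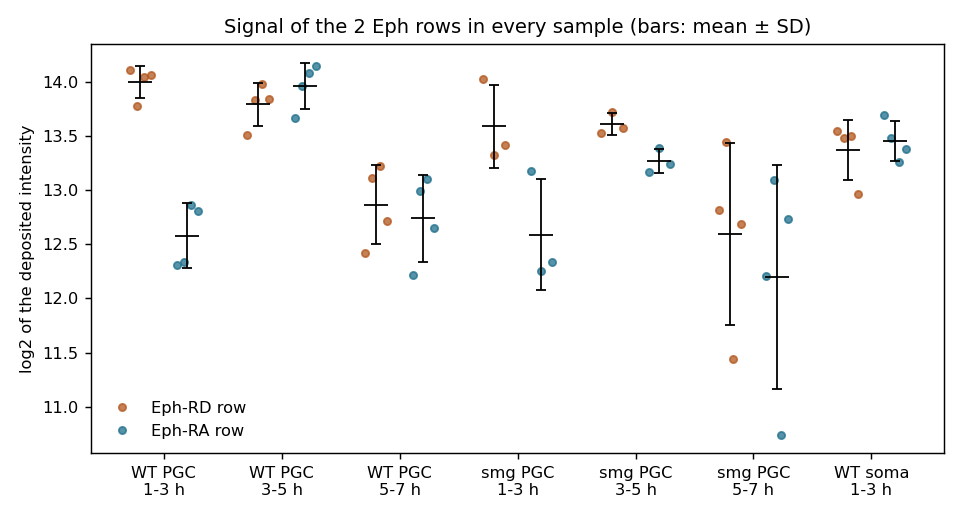
Log2 of the deposited intensity of Eph-RD and Eph-RA (y axis) in each of the 26 samples, by group (x axis). Points are samples and bars give the mean ± SD (n = 3 or 4); Eph-RA lies above its 1-3 h values in all 4 wild-type PGC samples at 3-5 h, and both rows are lower at 5-7 h.

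Between 1-3 h and 5-7 h, a comparison that holds no 3-5 h sample, Eph-RD fell in wild-type PGCs and Eph-RA did not pass the test. This comparison shares its 1-3 h samples with the contrast that chose the rows, so its p-values are not independent of that choice. The same holds for every other test of the Eph rows that includes 1-3 h PGCs. Eph-RD fell by 1.13 (SE 0.24, adjusted p = 0.0179 in limma over all rows), from a log2 mean of 13.99 ± 0.15 to 12.87 ± 0.37 (SD, n = 4), and the 4 later values lay below the 4 earlier ones. The two-sided exact permutation p was 0.0286, the smallest that 4 against 4 samples allow. Of all rows, 7.65% were called lower here, and 12.4% had a more negative change than Eph-RD. Eph-RA changed by 0.16 (SE 0.27, adjusted p = 0.742), with overlapping values and log2 means of 12.58 ± 0.30 and 12.74 ± 0.40.

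The Eph-RD difference did not rest on the 5-7 h replicates with raised somatic transcripts: with replicates 1 and 2 alone it was -1.23 (adjusted p = 0.0151), and Eph-RA differed by 0.02. The call itself was close to its limits. The adjusted p was 0.0591 without replicate 3 and 0.0557 without replicate 4 of the 1-3 h group, and the difference was -0.98, under a 2-fold change, without replicate 1 of the 5-7 h group.

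The log2 ratio of Eph-RD over Eph-RA separated the first wild-type time point from the later ones. It was 1.79, 1.44, 1.18 and 1.25 in the 4 replicates at 1-3 h. It was -0.15, -0.13, -0.10 and -0.31 at 3-5 h and 0.21, 0.11, 0.12 and 0.06 at 5-7 h. The 3 sets of values did not overlap, and the ratio varied less at the later times, with SDs of 0.28, 0.09 and 0.06 in turn. Between 1-3 h and 5-7 h the ratio changed by -1.29, and by -1.25 with replicates 1 and 2 alone at the later time. Every comparison of the ratio with 1-3 h PGCs is a description, with no test, since the rows were chosen for parting from these samples. The 5-7 h ratios of replicates 3 and 4, whose somatic transcripts were raised, were 0.12 and 0.06.

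**Figure D2:**
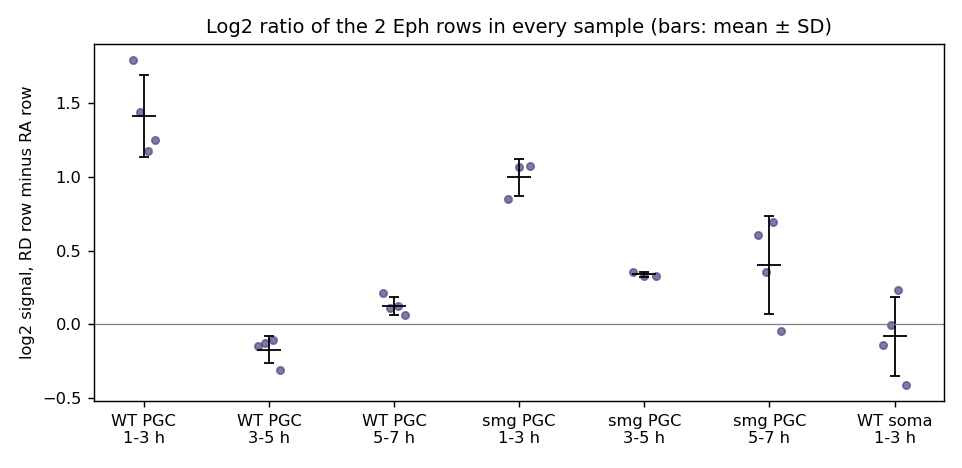
Log2 signal of Eph-RD minus that of Eph-RA (y axis) in each sample, by group (x axis), with mean ± SD (n = 3 or 4). The ratio is between 0.85 and 1.79 in all 7 PGC samples at 1-3 h and between -0.41 and 0.70 in all other samples; only its change between groups can be read, since the probes of the rows differ.

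Somatic cells at 1-3 h differed from PGCs of the same age in opposite directions for the 2 rows. Eph-RD had log2 signals of 13.55, 13.48, 13.50 and 12.96 in somatic cells and Eph-RA had 13.69, 13.48, 13.26 and 13.37. All somatic Eph-RD values lay below, and all somatic Eph-RA values above, the PGC values given above. The difference, somatic minus PGC, was -0.62 (SE 0.17, adjusted p = 0.0122 in limma) for Eph-RD and 0.87 (SE 0.18, adjusted p = 0.00285) for Eph-RA, both under a 2-fold change and so not called. This comparison moved much of the transcriptome: 36.0% of rows were called and 55.5% had an adjusted p under 0.05 at any fold, so passing that threshold was the commoner outcome. The comparison shares its 1-3 h PGC samples with the contrast that chose the rows, so these p-values are not independent of that choice either.

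The ratio was -0.14, -0.01, 0.23 and -0.41 in the somatic samples, below every PGC value at 1-3 h and on average 1.495 lower. The median of all rows was -0.15 in this comparison, and centring each array on its median moved the rows to -0.88 and 0.61 and kept both directions. It also moved the split of calls over all rows from 2908 higher and 3080 lower to 2420 higher and 4174 lower. Per the labels the somatic RNA carried Cy3 and the 1-3 h PGC RNA Cy5, so dye and cell type cannot be told apart here. For Eph-RD, the fit of all 7 groups together gave an adjusted p of 0.0788 at the same difference. Without somatic replicate 4, the lowest value, the Eph-RD difference was -0.49 (adjusted p = 0.0178).

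In smaug-mutant PGCs Eph-RD had 14.03, 13.32 and 13.41 at 1-3 h and Eph-RA had 13.18, 12.26 and 12.34. Replicate 1 was the highest sample for both rows. Against wild-type PGCs of that age, Eph-RD differed by -0.41 (SE 0.21, adjusted p = 0.221 in limma) and Eph-RA by 0.01 (SE 0.28, adjusted p = 0.985), with overlapping values, in a comparison that called 13.5% of rows. The sign of the Eph-RA difference turned without mutant replicate 1, to -0.28. The ratio was 0.85, 1.06 and 1.07 in the mutant, below all 4 wild-type values, with a mean difference of -0.42.

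At 3-5 h the mutant PGCs had 13.53, 13.72 and 13.57 for Eph-RD and 13.17, 13.39 and 13.24 for Eph-RA. The difference from mutant PGCs at 1-3 h was 0.02 for Eph-RD and 0.68 for Eph-RA, and both rows overlapped between these times. For Eph-RA the overlap came from mutant replicate 1 at 1-3 h, at 13.18. The background of this comparison was 10.9% of rows called. Between genotypes at 3-5 h, all 3 mutant Eph-RA values lay below all 4 wild-type values, with a mean difference of -0.69, while Eph-RD differed by -0.18 with overlap. In this comparison 16.6% of rows were called. The ratio was 0.36, 0.33 and 0.33 in the mutant, 0.51 higher than in wild type and without overlap. Per the labels only the mutant 3-5 h PGCs carried Cy3 among the PGC groups. For these differences, and for those of the mutant 3-5 h samples from other mutant times, dye and group cannot be told apart. The study's methods instead assign Cy3 to wild type and Cy5 to the mutant. If the methods hold, dye and genotype cannot be told apart in any comparison between genotypes, those of the pathway and receptor rows included.

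The mutant samples at 5-7 h were the most variable of the series for both rows. Eph-RD had 12.82, 13.44, 11.44 and 12.69, and Eph-RA had 12.21, 13.09, 10.74 and 12.73. Replicate 3 was the lowest of all 26 samples for both rows, yet its ratio of 0.70 was near the 0.61 of replicate 1. Between 1-3 h and 5-7 h the mutant differences were -0.99 for Eph-RD (SE 0.45, adjusted p = 0.145 in limma) and -0.40 for Eph-RA (SE 0.55, adjusted p = 0.639), while 19.3% of rows were called. Without replicate 3 at 5-7 h, the differences were -0.60 and 0.09. Against mutant PGCs at 3-5 h the differences were -1.01 for Eph-RD and -1.07 for Eph-RA, with no overlap, and 12.3% of rows were called. The ratio was 0.61, 0.35, 0.70 and -0.04, below all 3 mutant values at 1-3 h by 0.59 on average.

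At 5-7 h the genotypes did not differ past the test in either row. Mutant minus wild type was -0.27 for Eph-RD (SE 0.42, adjusted p = 0.737 in limma) and -0.55 for Eph-RA (SE 0.50, adjusted p = 0.544), in a comparison that called 2.50% of rows. Against wild-type replicates 1 and 2 alone the differences were -0.17 and -0.41, and without mutant replicate 3 they were 0.12 and -0.06. The ratio differed by 0.28 with overlapping values (two-sided exact permutation p = 0.20), and by 0.24 against wild-type replicates 1 and 2 alone. The difference between genotypes in the change from 1-3 h to 5-7 h was 0.14 for Eph-RD (SE 0.52, adjusted p = 0.903) and -0.56 for Eph-RA (SE 0.63, adjusted p = 0.644). With wild-type replicates 1 and 2 alone at 5-7 h these were 0.24 (adjusted p = 0.846) and -0.42 (adjusted p = 0.772), and without mutant 5-7 h replicate 3 the Eph-RA value was -0.07. For this term 4.71% of rows were called, and the ratio's difference of 0.69, or 0.66 with wild-type replicates 1 and 2 alone, was not tested.

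Ordered by mean level, Eph-RD went from wild-type PGCs at 1-3 h (13.99) through wild-type and mutant PGCs at 3-5 h (13.79 and 13.61), mutant PGCs at 1-3 h (13.59) and somatic cells (13.37) to wild-type and mutant PGCs at 5-7 h (12.87 and 12.60). Every pair of neighbours in this order overlapped. Eph-RA was ordered differently: wild-type PGCs at 3-5 h (13.96), somatic cells (13.45), mutant PGCs at 3-5 h (13.27), wild-type PGCs at 5-7 h (12.74), mutant and wild-type PGCs at 1-3 h (12.59 and 12.58) and mutant PGCs at 5-7 h (12.19). Only mutant PGCs at 3-5 h and wild-type PGCs at 5-7 h did not overlap among its neighbours. The group with the highest Eph-RA was not the group with the highest Eph-RD. The rows were chosen for changing differently between these very groups, so this follows at least in part from that choice.

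Within groups the rows moved together. After each group's mean was subtracted, their log2 signals correlated with r = 0.91 over the 26 samples, and 0.81 over the 22 samples without the mutant 5-7 h group. Over the 7 group means r was 0.47. These are descriptions of rows read in the same channel of the same arrays, which share the RNA sample, its amplification and any probe sequence in common.

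Rows of 1 gene often differed in their changes. Among 926 pairs of rows from 459 genes with 2 or more paired rows, the wild-type changes from 1-3 h to 3-5 h differed within a pair by a median of 0.53, and the Eph pair by 1.59, a value exceeded in 101 pairs (10.9%) of 49 genes. For somatic cells against PGCs the median was 0.52 and the Eph value 1.495, exceeded in 18.3% of pairs. From 1-3 h to 5-7 h in wild-type PGCs the median was 0.63 and the Eph value 1.29, exceeded in 21.8%. In the mutant, the Eph value at 3-5 h was 0.66 against a median of 0.40. The Eph pair was chosen for its difference at 3-5 h, so its place among the pairs there was set by that choice. The somatic and wild-type 5-7 h values share the 1-3 h samples of that contrast. All these places are descriptions, with no test. Rows were named only through the study's lists of changed, stable and expressed transcripts, so these pairs are not a random draw of genes.

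**Figure D3:**
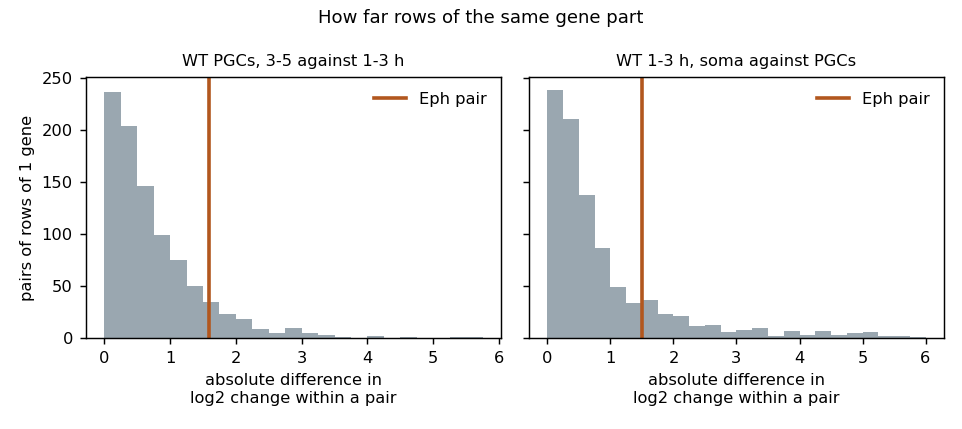
Histograms of the absolute difference in log2 change between rows of the same gene (x axis, log2 units; y axis, number of the 926 pairs), for wild-type PGCs at 3-5 h against 1-3 h and for wild-type somatic cells against PGCs at 1-3 h. The vertical line marks the Eph pair, at 1.59 and 1.495, to the right of the medians of 0.53 and 0.52. The pair was chosen for its difference at 3-5 h, so its place there is a description.

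The rows most like Eph-RD and Eph-RA over the 26 samples were different ones. Among 5289 named rows with a mean log2 signal above 8, Eph-RD followed most closely Ptp69D, a receptor tyrosine phosphatase of axon guidance (r = 0.91), the protein kinase Dyrk3 (0.90), CG14897 (0.89), unc-13, a synaptic vesicle priming factor (0.89), and tacc, a centrosomal protein (0.89). Eph-RA followed CG32043 (0.82), cno, a scaffold of adherens junctions (0.81), the kinase Lk6 (0.80), and 2 rows of sqd, an RNA-binding protein (0.80 and 0.79). The Eph rows correlated with each other at 0.63, and 248 named rows were more like Eph-RD, and 77 more like Eph-RA, than the other Eph row was. The correlations rest on 7 group levels and on the channels that all rows share. They include the samples in which the Eph rows were chosen for changing differently, so the ranks of the other Eph row follow in part from that choice.

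The ligand fell in PGCs of both genotypes. Ephrin (CG1862-RA), the membrane-anchored ligand of Eph, had log2 means of 12.56 ± 0.27, 11.43 ± 0.32 and 11.38 ± 0.47 (SD, n = 4) in wild-type PGCs at the 3 times and 12.17 ± 0.18 in somatic cells. In the mutant it had 12.52 ± 0.11 (n = 3), 11.95 ± 0.09 (n = 3) and 11.02 ± 0.78 (n = 4). From 1-3 h to 5-7 h it fell by 1.18 in wild type (SE 0.29, adjusted p = 0.0287 in limma) and by 1.51 in the mutant (SE 0.40, adjusted p = 0.0277). With wild-type replicates 1 and 2 alone at the later time the wild-type difference was -1.02 (adjusted p = 0.0612) and no longer passed. At 3-5 h, when Eph-RA was 1.38 higher in wild-type PGCs, Ephrin was 1.13 lower than at 1-3 h, given as a description from the contrast that chose the Eph rows. Ephrin did not pass the test between somatic cells and PGCs (-0.39, SE 0.18, adjusted p = 0.0872) or between genotypes at 1-3 h (-0.04, SE 0.19, adjusted p = 0.916).

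**Figure D4:**
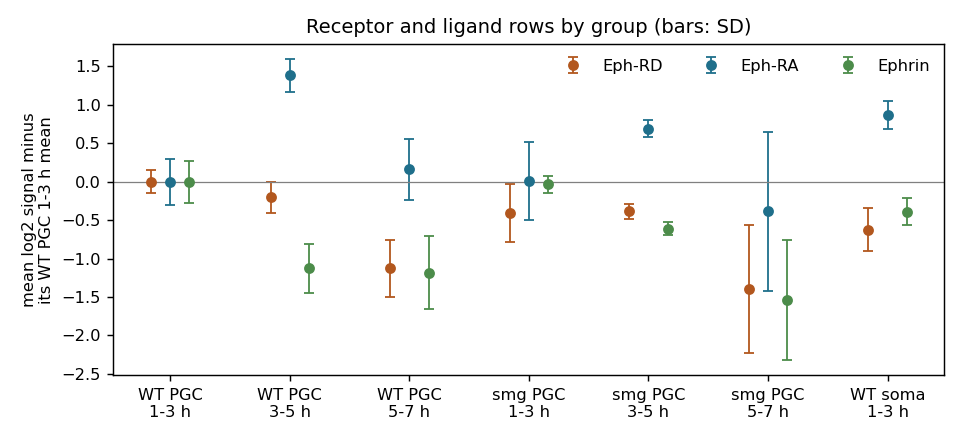
Mean log2 signal of Eph-RD, Eph-RA and Ephrin in each group (x axis) minus the same row's mean in wild-type PGCs at 1-3 h (y axis, log2 units), with the SD of each group (n = 3 or 4). In wild-type PGCs at 3-5 h Eph-RA is 1.38 higher and Ephrin 1.13 lower than at 1-3 h, while Eph-RD differs by -0.20.

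Of the 15 genes listed as ligands and effectors of the pathway, 12 had paired rows, 17 in all. None of the 17 rows was called higher, and 2 were called lower, in wild-type PGCs at 5-7 h against 1-3 h, with a list median of -0.21 against -0.02 for all rows, where 14.1% were called. The called rows were Ephrin and kuz (CG7147-RA), the Kuzbanian ADAM metalloprotease, which fell by 1.99 (SE 0.37, adjusted p = 0.0109 in limma). With wild-type replicates 1 and 2 alone at 5-7 h, 1 row of the 17 was called lower, kuz CG7147-RA at -1.64. In that setting 3176 of all 16623 rows were called. The other kuz row, CG7147-RC, was called in neither setting. Its log2 means were 10.20 at 1-3 h and 9.16 at 5-7 h, and its difference with replicates 1 and 2 alone was -0.51 (adjusted p = 0.340 in limma). In the mutant over the same interval 1 row, Ephrin, was called lower and none higher, where 19.3% of all rows were called. The list median there was -0.003 against -0.01 for all rows.

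In somatic cells against PGCs, the list median was 0.28 against -0.15 for all rows, of which 36.0% were called. The kuz row CG7147-RA was called lower, at -1.12 (SE 0.15, adjusted p = 0.000205 in limma). The other kuz row, CG7147-RC, was not called, with log2 means of 10.04 in somatic cells and 10.20 in PGCs. Between genotypes at 1-3 h 4 rows were called lower in the mutant and none higher, with a list median of -0.22 against -0.01 for all rows, of which 13.5% were called. They were kuz CG7147-RA at -1.65 and the Cdc42 row CG12530-RA, a regulator of cell polarity, at -1.30. The others were the Src-family kinase Src64B at -1.16 and the Abl kinase at -1.01. The other rows of kuz and Cdc42 were not called. In mutant and wild-type PGCs the log2 means of kuz CG7147-RC were 9.31 and 10.20, and those of Cdc42 CG12530-RB 13.16 and 13.77. Neither Eph row passed in that comparison. At 5-7 h none of the 17 rows was called between genotypes, where 2.50% of all rows were. For the genotype difference in change 1 row was called, Cdc42 CG12530-RA at 1.5002, where 4.71% of all rows were called. With wild-type replicates 1 and 2 alone Cdc42 CG12530-RA was at 1.43, where 1570 of all 16623 rows were called. Cdc42 CG12530-RB was not called there, and was at 0.51 (adjusted p = 0.265 in limma) with wild-type replicates 1 and 2 alone.

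Among 19 other receptor tyrosine kinase genes, 6 had paired rows, 1 each. In somatic cells against PGCs, 3 were called higher and 2 lower, where 36.0% of all rows were called: the PDGF and VEGF receptor homologue Pvr (5.85), the pseudokinase otk (6.18) and the Ryk-type receptor drl (7.01) were higher, and the terminal-patterning receptor tor (-2.29) and Wsck (-2.47) were lower. The remaining row, that of the insulin receptor InR, was not called, with log2 means of 13.24 in somatic cells and 12.40 in PGCs. The Eph rows, at -0.62 and 0.87, were not called either. A call needs a fold above 2, so their smaller size than the called rows follows from the threshold. Pvr, otk and drl were weak in PGCs at 1-3 h, with log2 means of 5.94, 5.75 and 5.67 in wild type and 5.40, 5.10 and 5.48 in the mutant. The array means were 8.18 to 8.25 and the control medians 4.06 to 4.83. The size of the differences of these 3 rows from 1-3 h PGCs therefore rests on weak signals. In wild-type PGCs from 1-3 h to 5-7 h, the insulin receptor InR (-1.68), tor (-3.56) and Wsck (-2.001) fell, and Pvr (3.52) and drl (4.85) rose, where 14.1% of all rows were called. With replicates 1 and 2 alone at the later time all 5 were still called in the same directions. Pvr was at 1.88, drl at 2.58 and tor at -1.78, and 3176 of all 16623 rows were called. In the mutant over that interval, Pvr (1.96) and drl (2.19) rose and tor (-1.44) fell, where 19.3% of all rows were called. Between genotypes InR was lower in the mutant at 1-3 h (-2.20) and Wsck was higher at 5-7 h (1.17), where 13.5% and 2.50% of all rows were called. With wild-type replicates 1 and 2 alone no row of the 6 was called in the second of these, where 804 of all 16623 rows were. For the genotype difference in change Wsck was called at 1.41, where 4.71% of all rows were called. With wild-type replicates 1 and 2 alone Wsck was called at 1.16, where 1570 of all 16623 rows were called.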

How the data were processed

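RNA from sorted cells of 26 samples was amplified with WT-Ovation Pico, labelled with Cy3 or Cy5 and hybridized, 2 samples to an array, to custom NimbleGen arrays. Spot brightness was read with Nimblescan and the authors put all samples on 1 distribution by RMA quantile normalization in ArrayStar. The deposited intensity values are linear, 1 per transcript row and sample, and quantile normalization hides changes in total RNA per cell. Which samples shared an array, and the annotation build of the probes, are not given in the sources used here. The authors' own fold changes and p-values in supplementary lists were not used. Those lists served only to pair rows with transcript names, by matching intensities to 6 significant digits: 5369 rows were paired with 4778 genes, of which 5059 rows carry a RefSeq symbol of Release 6 of the genome. No column belonged to another series. Rows without a FlyBase transcript identifier (507 of 17130) were left out.

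Log2 was taken without a pseudocount. Each comparison of 2 groups was fitted with limma 3.58.1 (R 4.3.3) on all 16623 rows, with Benjamini-Hochberg adjustment over them. A row was called at an adjusted p under 0.05 and a fold above 2. The genotype difference in change was fitted on the 4 groups concerned. SAM, the study's test, was not run. Single values, and the ratio at 5-7 h, were compared by two-sided exact permutation tests (scipy 1.17.1). The limma step was tested on simulated data. The number of arrays limits the precision, since these values carry no read depth. The 50 soma-enriched rows were those with a mean log2 signal of at least 12 in somatic cells and the largest excess over wild-type PGCs at 1-3 h. Beside the Eph rows, the text names members of the pathway and receptor lists called in a tested comparison, with 1 exception that is not reported here, Ephrin, and the 5 named rows most correlated with each Eph row. The members and lists were chosen with earlier results of these data known. Alternatives were median centring, a second quantile normalization, all groups in 1 fit, array weights, a minimum mean log2 signal of 7, a replicate block, fold changes of mean linear intensities, wild-type 5-7 h replicates 1 and 2 alone and each sample left out. The count of list rows under the replicates 1 and 2 setting was added after seeing the data.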

Additional observations from a re-analysis of the deposited data

Results flagged for a closer look

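A single value of the Eph rows stood apart within its group. Eph-RD in replicate 4 of the wild-type somatic cells had a log2 signal of 12.96, against 13.48 to 13.55 in the other 3 replicates, a gap of 87.8% of the group's range against a critical 82.9% for 4 samples. Eph-RA in the same sample was 13.37, inside the range of its group. Chance alone marks about 1 in 20 groups in this way.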

How the results depend on the processing

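Of 142 alternative values of the Eph rows and their ratio, single samples left out not counted, 138 kept their direction and side of the threshold or moved by less than 1 SD. The other 4 were these. All 7 groups in 1 fit gave Eph-RD an adjusted p of 0.0788 in somatic cells against PGCs (difference -0.62) and 0.0216 in the mutant from 1-3 h to 5-7 h (-0.99). With the replicate block Eph-RD in wild-type PGCs from 1-3 h to 5-7 h stayed at -1.13, with an adjusted p of 0.0698. Array weights turned Eph-RA between genotypes at 1-3 h to -0.081. Samples of the same replicate number were not treated as pairs. Their deviations correlated at -0.14 to 0.22 and no comparison had every pair above 0.1. Which samples shared an array is not given, so these values cannot show whether samples were paired. The block moved the rows called from 2237 to 1171 between genotypes at 1-3 h, from 2339 to 1191 in wild-type PGCs from 1-3 h to 5-7 h, from 415 to 43 between genotypes at 5-7 h, from 490 to 0 in wild-type PGCs and from 2042 to 120 in mutant PGCs from 3-5 h to 5-7 h. Why these values moved was not tested.

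Leaving out single samples, the Eph-RD difference ranged from -1.25 to -0.98 (adjusted p 0.0147 to 0.0591) in wild-type PGCs from 1-3 h to 5-7 h, from -0.55 to 0.12 between genotypes at 5-7 h, turning to 0.12 without mutant replicate 3, and from -0.14 to 0.52 for the genotype difference in change, turning to -0.14 without mutant 5-7 h replicate 2 and to -0.01 without wild-type 5-7 h replicate 1. Eph-RA ranged from -0.28 to 0.18 between genotypes at 1-3 h, at -0.28 without mutant replicate 1 and at -0.08 and -0.07 without wild-type replicates 1 and 2, and from -0.69 to 0.088 in the mutant from 1-3 h to 5-7 h, turning to 0.088 without 5-7 h replicate 3. It ranged from -0.84 to -0.06 between genotypes at 5-7 h and from -0.85 to -0.07 for the genotype difference in change, nearest 0 without mutant 5-7 h replicate 3 in both.

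Counts of rows called over all rows depended on the fit. All 7 groups in 1 fit called 4214 rows in wild-type PGCs from 1-3 h to 5-7 h, 2914 between genotypes at 5-7 h, 2034 for the genotype difference in change (783 otherwise) and 2698 in wild-type PGCs from 3-5 h to 5-7 h. Wild-type 5-7 h replicates 1 and 2 alone gave 3176, 804, 1570 and 1268 in these comparisons. Array weights called 1137, 1953 and 999 in the last 3 of these. Leaving out single samples gave 1165 to 2612, 77 to 574, 288 to 1278 and 0 to 1024 in the 4 comparisons, and 1031 to 1478 in mutant PGCs from 1-3 h to 3-5 h (1814 with all samples).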
